A study of Homo sapiens with 2 samples.

Results

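ATF4 and 9 further windows of the stress response that it governs were examined in K562 cells, a long-established human line from a chronic myelogenous leukaemia. The 10 windows carry the names ATF4, DDIT3, TRIB3, PPP1R15A, CHAC1, ASNS, SESN2, DDIT4, DDIT4-AS1 and STC2, out of 36814 named gene-start windows in the table. They were chosen by name as genes of the ATF4 response, and partly selected on the DMSO/untreated read ratio, which is low in several of them, so these ratios are given as descriptions. The assay was PRO-seq, a precision run-on method that reads newly made RNA: permeabilised cells are given biotin-labelled nucleotides (for 5 min at 30 °C here), polymerases already at work add them, and the labelled RNA is captured and sequenced. There were 2 libraries, 1 from untreated K562 and 1 from K562 kept for 1 h in 0.1% DMSO, a common drug solvent. Both came from cells grown in RPMI with serum, and the labels name no genetic change in either. A single library stands for each treatment, so no p-value was computed, and every comparison is between 2 libraries with no replicate check.

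The integrated stress response begins with kinases that phosphorylate the translation initiation factor eIF2 when amino acids run short, unfolded proteins build up, haem is lacking or a virus is sensed. General translation then drops while the messenger RNA of ATF4, a basic leucine zipper transcription factor, is translated more, so ATF4 protein is controlled largely after transcription. ATF4 pairs with C/EBP proteins at C/EBP-ATF response elements and drives genes of amino acid synthesis, uptake and tRNA charging, together with feedback genes that end the response.

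The windows reach 3000 bases to either side of an annotated gene start on hg38 and hold 6000 bases each. The untreated library held 2136291 and the DMSO library 4154920 reads, of which 525322 and 2249790 lay outside ribosomal RNA and mitochondrial windows. Ribosomal RNA windows took 71.5% of untreated and 42.2% of DMSO reads, so CPM, the reads scaled to each library's total, rank windows within a library and do not compare the libraries. The comparison therefore used the log2 DMSO/untreated ratio after TMM scaling, a trimmed-mean factor, minus the ratio of the median window. That median was taken over the 6591 windows past the floor, which are those with a mean of at least 5 CPM and at least 100 reads in both libraries together. At the median window 4.72 DMSO reads stood for 1 untreated read, and the central 90% of windows past the floor lay between -1.18 and 1.13. Intervals are at 95% (exact Poisson for counts, exact Clopper-Pearson for ratios and shares) and cover counting error only. They treat reads as independent molecules, which PCR copies are not. Whether such copies were removed is not given in the sources used here.

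The cell line's own markers were present. Of 10 erythroid windows 9 held reads, and together they had 544 CPM untreated and 809 CPM with DMSO, with the transferrin receptor gene TFRC at 432 and 1179 reads. The 8 lymphoid and myeloid marker windows had 32.3 and 71.7 CPM together, with CD3E and MS4A1 at 0 untreated reads. The 8 markers of other tissues had 7.96 and 158 CPM, and COL1A1 and COL1A2 were at 0 in both libraries. Most of the DMSO signal of that list came from the astrocyte gene GFAP, with 0 untreated and 514 DMSO reads, and the neuronal gene SYT1, with 0 and 80. The part of these marker reads and of the unequal ribosomal RNA share in the values below was not tested.

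Reads lying in bases that more than 1 window covers are absent from the table. All 1154 windows with no base of their own held 0 reads, including 321 whose bases are shared with opposite-strand windows alone, so reads cannot be assigned to a strand. What a window reports therefore depends on its own bases, and for 4 of the 10 windows these do not include the start of the gene they are named for. ATF4, CHAC1, ASNS, SESN2, STC2 and TRIB3 share no base with another window. PPP1R15A keeps 3803 bases, DDIT4 and DDIT4-AS1 2057 each, and DDIT3 1028.

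**Figure D1:**
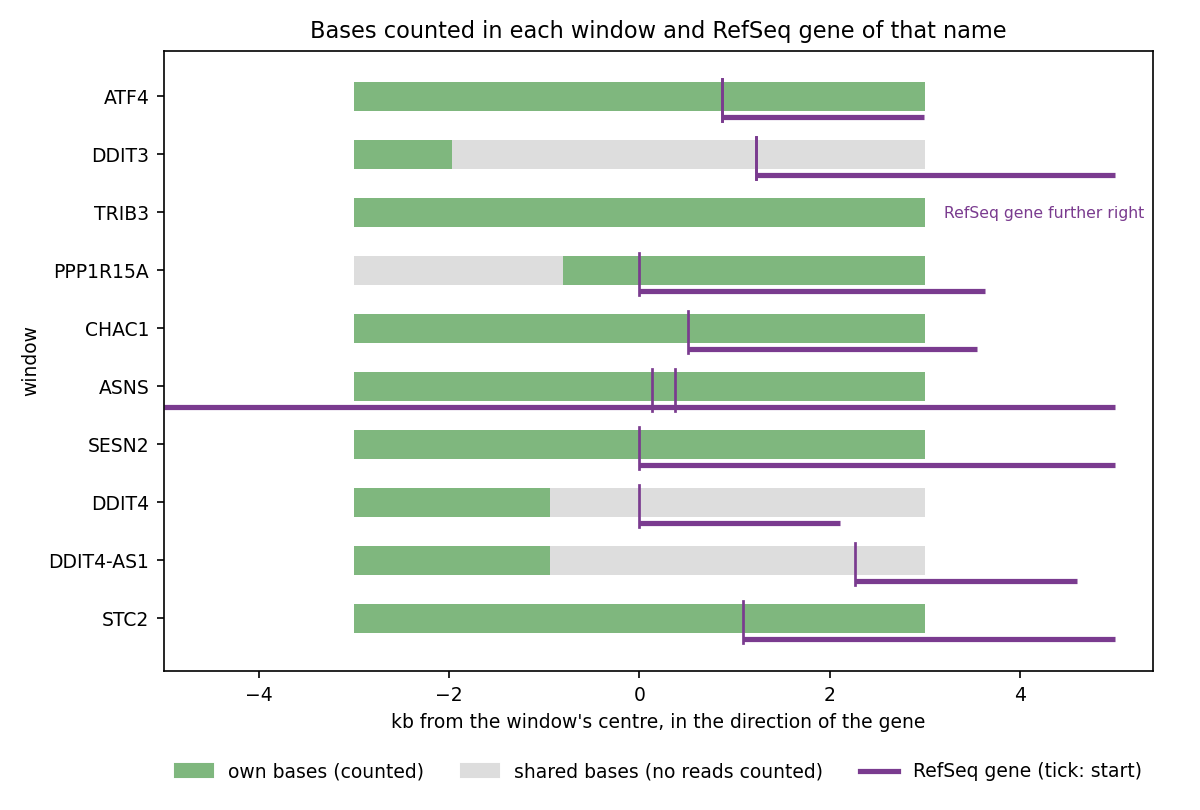
Map of the 10 windows, in kb from each window's centre and in the direction of its gene, with own bases in green, bases shared with another window in grey, and the RefSeq gene of the same name in purple with ticks at its listed starts. In 6 windows a start tick lies on green; in DDIT3, DDIT4 and DDIT4-AS1 it lies on grey, and the RefSeq gene TRIB3 begins outside its window.

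The DDIT4 locus shows how far a window's name can be from the bases it counts. DDIT4 (also REDD1, an inhibitor of the growth kinase complex mTORC1) lies at chromosome 10, 72273924 to 72276036, and the RefSeq antisense gene DDIT4-AS1 lies upstream of it at 72271386 to 72273711. The window named DDIT4 (72270924 to 72276923) counts the bases 72270924 to 72272980, of which 1595 are in the RefSeq gene DDIT4-AS1 and none in DDIT4. The window named DDIT4-AS1 (72272981 to 72278980) counts 72276924 to 72278980, which begins 888 bases past the RefSeq end of DDIT4, ends 2944 bases past it, and overlaps no RefSeq gene. The start and the whole body of DDIT4 lie in shared bases and are not counted anywhere.

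DDIT3 (also CHOP), a transcription factor of the C/EBP family, has its RefSeq starts at chromosome 12, 57520514 and 57520517. Its window counts only 57523710 to 57524737, which begins 3193 bases upstream of the start and lies wholly inside the neighbouring gene MBD6. The MBD6 window itself has no base of its own and 0 reads, and AC022506.1, the other window that shares bases here, held 6 untreated and 9 DMSO reads. TRIB3, a pseudokinase that restrains ATF4, has its RefSeq starts from chromosome 20, 381295 on, whereas its window covers 359835 to 365834 and ends 15461 bases before the first of them. Values under the names DDIT3, TRIB3, DDIT4 and DDIT4-AS1 are therefore values of these nearby bases.

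Promoter sequences of 300 bases (250 before and 50 after the RefSeq start, GRCh38.p14) were available for all 10 genes, and 5 are shown because they carry the motifs searched or the uncounted start. CHAC1 (chr15:40953221-40953520, plus strand) and ASNS (chr7:97872359-97872658, minus strand) hold the C/EBP-ATF response element. PPP1R15A (chr19:48872171-48872470, plus strand) holds TGACGTCA and TATAAA, and ATF4 (chr22:39520309-39520608, plus strand) holds TATAAA. DDIT4 (chr10:72273674-72273973, plus strand) is shown because every base of it lies in shared bases. Capitals mark motif matches on either strand, and all are written 5′ to 3′ on the gene's strand.
CHAC1: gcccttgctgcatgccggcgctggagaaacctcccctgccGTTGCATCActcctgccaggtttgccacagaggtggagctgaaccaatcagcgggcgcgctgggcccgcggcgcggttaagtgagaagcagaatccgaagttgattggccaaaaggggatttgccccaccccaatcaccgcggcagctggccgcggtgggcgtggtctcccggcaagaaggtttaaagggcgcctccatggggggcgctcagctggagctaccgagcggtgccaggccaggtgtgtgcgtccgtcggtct
ASNS: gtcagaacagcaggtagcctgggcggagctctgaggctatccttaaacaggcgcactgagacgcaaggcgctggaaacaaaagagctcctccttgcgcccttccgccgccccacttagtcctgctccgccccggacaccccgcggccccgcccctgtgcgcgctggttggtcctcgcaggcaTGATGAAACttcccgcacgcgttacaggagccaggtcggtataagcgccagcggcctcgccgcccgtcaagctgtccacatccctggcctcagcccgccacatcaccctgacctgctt
PPP1R15A: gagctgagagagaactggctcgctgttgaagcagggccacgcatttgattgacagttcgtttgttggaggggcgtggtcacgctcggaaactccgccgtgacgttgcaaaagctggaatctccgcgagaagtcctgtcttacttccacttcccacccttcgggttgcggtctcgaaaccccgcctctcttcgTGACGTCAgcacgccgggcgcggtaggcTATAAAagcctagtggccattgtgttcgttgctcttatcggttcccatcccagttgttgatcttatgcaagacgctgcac
ATF4: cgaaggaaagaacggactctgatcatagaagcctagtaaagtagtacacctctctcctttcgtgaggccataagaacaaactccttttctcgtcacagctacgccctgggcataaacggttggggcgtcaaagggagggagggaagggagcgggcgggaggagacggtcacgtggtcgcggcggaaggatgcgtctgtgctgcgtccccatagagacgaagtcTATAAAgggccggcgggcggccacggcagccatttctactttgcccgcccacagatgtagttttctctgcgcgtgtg
DDIT4: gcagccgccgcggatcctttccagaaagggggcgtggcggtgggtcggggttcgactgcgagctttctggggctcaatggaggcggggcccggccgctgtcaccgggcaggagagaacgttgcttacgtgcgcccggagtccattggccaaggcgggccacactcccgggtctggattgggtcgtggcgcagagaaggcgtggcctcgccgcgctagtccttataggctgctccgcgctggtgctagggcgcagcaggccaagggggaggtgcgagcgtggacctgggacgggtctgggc

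The response element TGATGNAAN occurred, counting both strands, in 2 of the 10 genes. In CHAC1 it read GTTGCATCA on the plus strand (the reverse complement form) from -210 to -202 relative to the start, and in ASNS TGATGAAAC from -68 to -60. Of all 27305 RefSeq genes with such promoters 4.45% held it in at least 1. Its exact form TGATGCAAT, which is contained in TGATGNAAN, was in 0.293% of all genes and in none of these genes. The palindrome TGACGTCA, the cAMP response element, was in PPP1R15A from -58 to -51 and in 2.25% of all genes. TATAAA was in ATF4 from -27 to -22 and in PPP1R15A from -30 to -25, and in 13.99% of all genes. The ER stress element was in 0.0916% of all genes and in none of these 10. Over the table, 61 windows past the floor whose own bases hold a RefSeq start had TGATGNAAN in such a promoter, with a median relative log2 ratio of -0.05 and 5 (8.20%) at least 2-fold lower, against a median of 0.13 and 3.08% in the 3736 windows without it. With CHAC1 and ASNS left out, 59 windows had a median of 0.03, 3 (5.08%) were at least 2-fold lower and 5 (8.47%) at least 2-fold higher, where 7.90% of the windows without the motif were higher.

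ATF4 itself was among the most read gene starts in both libraries. Its window (chromosome 22, 39516695 to 39522694) takes in the whole RefSeq gene and the last 1438 bases of MIEF1 upstream of it. It held 260 untreated reads (interval 229 to 294) and 1610 DMSO reads (1532 to 1691), or 122 and 387 CPM. The library with more reads was DMSO, by more than at the median window, and the relative log2 ratio was 0.39 (interval 0.20 to 0.59), within 2-fold.

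The 3 windows past the floor closest to ATF4 in the log2 CPM of both libraries were HNRNPF with 257 and 1674 reads, HMGN2 with 252 and 1521, and SLC35B2 with 275 and 1533. They lay at Euclidean distances of 0.0587, 0.0936 and 0.107 in log2 CPM, over 2 libraries only.

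PPP1R15A (also GADD34) guides protein phosphatase 1 to eIF2 and so ends the response. Its window at chromosome 19, 48869421 to 48875420, held 187 untreated (interval 161 to 216) and 509 DMSO reads (466 to 555). DMSO reads were more numerous but by less than at the median window, with a relative log2 ratio of -0.79 (interval -1.04 to -0.54). A lower ratio was found in 855 of the 6591 windows past the floor. The window that overlaps it, PLEKHA4, held 15 and 24 reads in its own 3803 bases. DDIT3's window of MBD6 bases held 17 untreated (9.90 to 27.2) and 71 DMSO reads (55.5 to 89.6), a relative log2 ratio of -0.18 whose interval (-0.95 to 0.68) holds the median window. The TRIB3 window held 18 untreated (10.7 to 28.4) and 13 DMSO reads (6.92 to 22.2) and stood at -2.64 (interval -3.86 to -1.60). DDIT3 and TRIB3 had under 100 reads and did not pass the floor.

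The enzyme genes CHAC1 and ASNS both stood over 2-fold below the median window. CHAC1, which cleaves glutathione, held 122 untreated reads (interval 101 to 146) and 21 DMSO reads in its window at chromosome 15, 40949962 to 40955961. It had fewer reads in the library of greater depth, and the relative level with DMSO was 26.5-fold lower (interval 17.2 to 45.9), a log2 ratio of -4.73. ASNS, which makes asparagine from aspartate, held 91 untreated (73.3 to 112) and 78 DMSO reads (61.7 to 97.3) at chromosome 7, 97869543 to 97875542. The intervals of those counts overlap, but in the deeper DMSO library the relative level was 5.46-fold lower (interval 4.02 to 7.54), a log2 ratio of -2.45. The RefSeq starts of ASNS listed at 97872408 and 97872165 both lie in this window, although other transcripts of the gene begin further upstream.

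The growth-restraining and secreted genes differed among themselves. SESN2, a leucine sensor that inhibits mTORC1, held 266 untreated and 534 DMSO reads at chromosome 1, 28256518 to 28262517. Its relative level was 2.35-fold lower with DMSO (interval 2.02 to 2.73), a log2 ratio of -1.23. Without centring on the median window that ratio was -0.92, no longer past 2-fold, and with library totals and no centring it was 0.046. STC2, a secreted glycoprotein, held 118 untreated (97.7 to 141) and 74 DMSO reads (58.1 to 92.9) at chromosome 5, 173326504 to 173332503, and was 7.46-fold lower (interval 5.58 to 10.2), a log2 ratio of -2.90. Of the 6000 bases in that window 1911 are in STC2, and 3905 are in the noncoding RNA gene LOC124901137 just upstream.

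Both sides of DDIT4 were read deeply in the untreated library and scarcely with DMSO. The bases upstream, counted as DDIT4, held 85 untreated (interval 67.9 to 105) and 5 DMSO reads (1.62 to 11.7). Their relative log2 ratio was -6.12 (interval -7.98 to -5.05), though with 90 reads in all the window was under the floor. The bases downstream, counted as DDIT4-AS1, held 732 untreated (680 to 787) and 27 DMSO reads (17.8 to 39.3), with a relative log2 ratio of -6.96 (interval -7.61 to -6.45). The intervals of the upstream and downstream ratios overlap. No other window past the floor had a lower ratio than DDIT4-AS1, and 3 had a lower ratio than CHAC1.

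**Figure D2:**
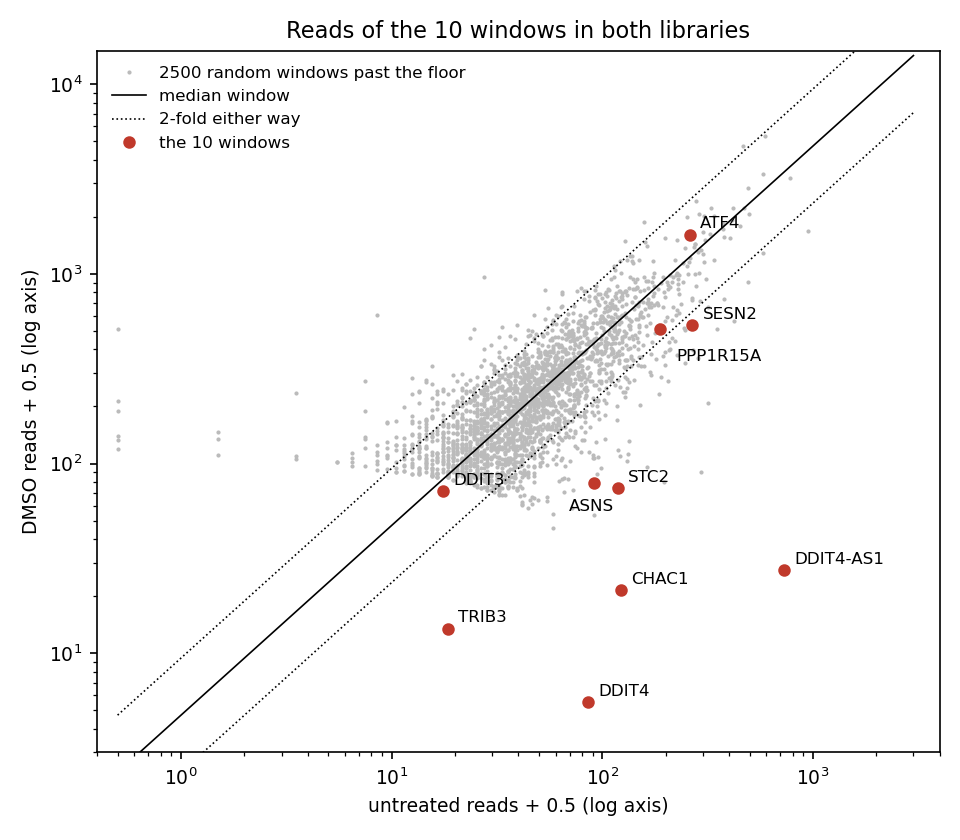
Untreated against DMSO reads (log axes, 0.5 added) of the 10 windows in red and of 2500 windows drawn at random from those past the floor in grey, with the ratio of the median window as a solid line and 2-fold either way as dotted lines. ATF4 lies just above the solid line, PPP1R15A between the lines, and DDIT4-AS1 with 732 and 27 reads far below the lower dotted line.

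Of the 10 windows 7 passed the floor, and 5 of these (DDIT4-AS1, CHAC1, STC2, ASNS and SESN2) were at least 2-fold lower with DMSO relative to the median window, against 7.97% of all windows past the floor. None was at least 2-fold higher, against 7.04%. The intervals of all 5 lay wholly past 2-fold. The floor adds up both libraries. DDIT4-AS1, CHAC1 and STC2 reached its 100 reads with untreated reads alone (732, 122 and 118), the library where they are high. Windows past the floor had medians of 45 untreated and 205 DMSO reads. The windows examined were also chosen partly for this ratio, so their count is no independent evidence of a direction. The 7 had a median of -2.45, where that of all windows past the floor is 0 by construction. Among the 6 windows whose own bases hold the RefSeq start, 4 were at least 2-fold lower and none was at least 2-fold higher. Of the 3797 such windows past the floor 3.16% were lower and 7.9% higher. Centred on the median of those 3797 windows instead, the counts were again 4 and 0, where 4.77% were lower and 5.24% higher. Fewer DMSO than untreated reads, in spite of the deeper DMSO library, were held by 4 of the 7 windows past the floor and by 0.516% of all windows past it. DDIT3, TRIB3 and DDIT4 were left out by the floor, and 2 of those 3 (TRIB3 and DDIT4) also stood below -1.

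**Figure D3:**
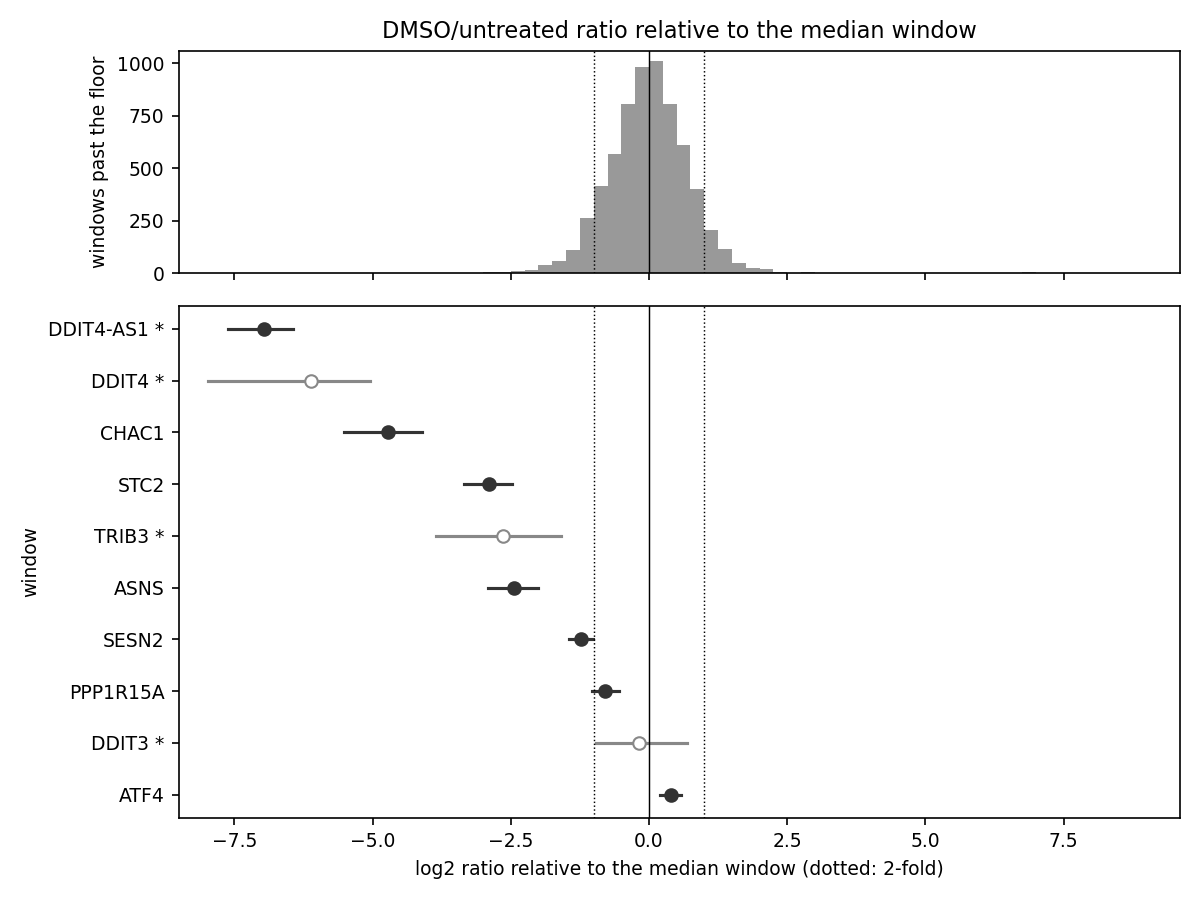
Log2 DMSO/untreated ratio relative to the median window, for all 6591 windows past the floor as a histogram (above) and for each of the 10 windows with its 95% Clopper-Pearson interval (below), where open circles mark windows under the floor and an asterisk own bases without the RefSeq start. ATF4 at 0.39, DDIT3 at -0.18 and PPP1R15A at -0.79 lie inside the 2-fold lines and the other 7 below -1.

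The order of the windows by level, which needs no scaling between libraries, also differed. Levels here are CPM per kb of own bases. In the untreated library the bases past DDIT4 (the DDIT4-AS1 window) led with 167 CPM per kb (interval 155 to 179). PPP1R15A with 23.0, SESN2 with 20.8, ATF4 with 20.3 and the DDIT4 window with 19.3 followed, and neighbours in that order did not differ beyond their counting intervals. CHAC1 with 9.52, STC2 with 9.21, DDIT3 with 7.74 and ASNS with 7.10 likewise overlapped from each to the next, and TRIB3 was last with 1.40 CPM per kb.

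In the DMSO library ATF4 led with 64.6 CPM per kb (interval 61.5 to 67.8), followed by PPP1R15A with 32.2, SESN2 with 21.4 and DDIT3 with 16.6, where the intervals of the last pair overlapped. DDIT4-AS1 with 3.16, ASNS with 3.13 and STC2 with 2.97 did not differ beyond their intervals, nor did CHAC1 with 0.842, DDIT4 with 0.585 and TRIB3 with 0.521. Among the 32081 windows with at least 200 own bases, CHAC1 stood at percentile 96.6 of level in the untreated library and 58.7 in the DMSO library. DDIT4 stood at 99.1 and 54.2, and ATF4 at 99.2 and 99.7.

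**Figure D4:**
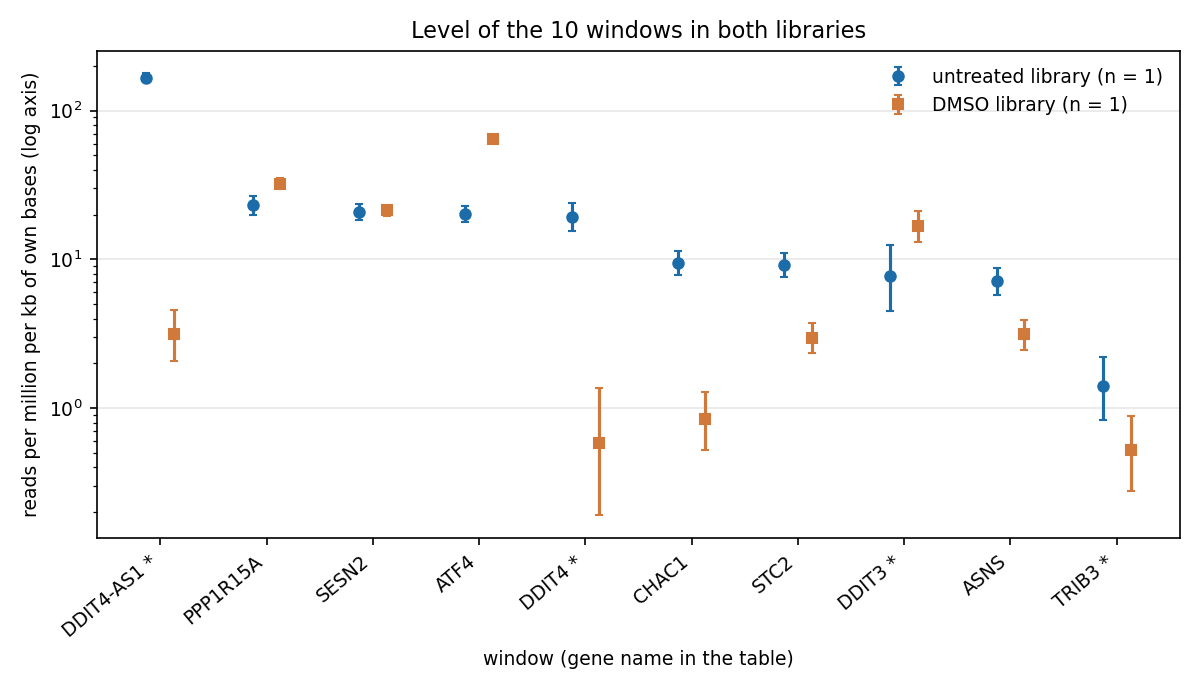
Level of each window in CPM per kb of own bases (log axis) in the untreated (circles) and DMSO (squares) library, 1 library each, with exact 95% Poisson intervals; an asterisk marks own bases without the RefSeq start. CPM are scaled to library totals that differ in ribosomal RNA, so the order within each library is the readable part, with DDIT4-AS1 highest untreated at 167 and ATF4 highest with DMSO at 64.6.

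Set against ATF4 within the same library, a share that no scaling can alter, CHAC1 had 46.9 reads per 100 ATF4 reads untreated and 1.304 with DMSO. ASNS had 35.0 and 4.84, STC2 45.4 and 4.596, and SESN2 102 and 33.2. PPP1R15A had 71.9 and 31.6. Of all reads in the 10 windows, 1896 untreated and 2942 with DMSO, ATF4 took 13.7% (interval 12.2 to 15.3) untreated and 54.7% (52.9 to 56.5) with DMSO. The DDIT4-AS1 window took 38.6% (36.4 to 40.8) and 0.918% (0.606 to 1.33). ATF4 has the highest ratio of the 10, so a lower number per ATF4 read in the others follows from the ratios above.

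Nearby windows were on both sides of the median window. Within 30 kb of the 10 windows and sharing no base with them lay 16 other windows, of which 8 passed the floor. Of these 8, 4 stood below the median window, their median was -0.17, and 1 was at least 2-fold lower, against 7.97% of all windows. Of all 16, 11 stood below it. These were chosen after their values were seen. Around SESN2, DNAJC8 stood at 0.51, ATP5IF1 at 0.09, AL353622.1 at -0.60, with an interval wholly below 0, and, under the floor, AL353622.2 at -1.07. Around ATF4, RPS19BP1 stood at 0.34 and AL022312.1 at 0.56. DLL4, 17622 bases from the CHAC1 window, held 25 and 83 reads and stood at -0.50 (interval -1.17 to 0.20). The low window was ARHGAP9 near DDIT3, with 93 and 112 reads and a log2 ratio of -1.96. The windows of ASNS, STC2, DDIT4 and DDIT4-AS1 had no such neighbour.

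Of the 3 windows past the floor nearest to CHAC1 in the log2 CPM of both libraries, 2 hold, among others, bases of genes known as ATF4 targets, and their reads cannot be assigned to one gene. MIOX, with 175 untreated and 19 DMSO reads, lay closest at a distance of 0.540 in log2 CPM, and of the bases it counts 2925 are in MIOX itself and 1895 in ADM2, a secreted peptide gene. GLI1, with 110 and 10 reads at 1.08, counts 2377 bases of LOC124902947, 1241 of INHBE, an activin subunit gene, and 34 of GLI1. AC006504.1 on chromosome 19, with 91 and 53 reads at 1.40, overlaps no RefSeq gene. The window named ADM2 held 43 untreated and 10 DMSO reads, with a log2 ratio of -4.24 (interval -5.50 to -3.33). The window named INHBE held 20 and 18 reads and stood at -2.34 (interval -3.39 to -1.40), in own bases without a listed RefSeq start. Both were under the floor and are named after their values were seen.

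Genes that act before ATF4 all stood within 2-fold of the median window where they passed the floor. The list held the eIF2 kinases, eIF2 and eIF2B subunits, phosphatase 1 catalytic subunits and their regulators, 19 genes in all, of which 12 passed the floor. None was at least 2-fold lower or higher, against 7.97% and 7.04% of all windows, so a count of 0 among 12 is near those shares, and the median was 0.12. GCN1, the ribosome-bound activator of the amino acid sensing kinase, held 337 untreated and 2019 DMSO reads and stood at 0.34. That kinase, EIF2AK4 (also GCN2), stood at 0.01 (interval -0.66 to 0.75) and the haem-regulated kinase EIF2AK1 at 0.14 (interval -0.25 to 0.55); both were chosen after their values were seen. The eIF2 subunit genes EIF2S2 and EIF2S3 stood at -0.47 and -0.80, and the phosphatase gene PPP1CC was highest at 0.80. Among the 12 the own bases of EIF2AK1, EIF2S2 and PPP1CA (named for this alone) do not hold a listed RefSeq start. EIF2AK3, the kinase of the endoplasmic reticulum (ER), had 74 own bases and 1 DMSO read, which gives no usable level.

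Of 14 partner and related factors 3 passed the floor, and none of them was past 2-fold in either direction. ATF1 held 152 and 698 reads and stood at -0.04. CEBPG, a C/EBP partner of ATF4, stood at -0.17, and CEBPD, whose own bases hold no listed RefSeq start, at 0.31. Of the 11 others 9 had under 1 kb of own bases, among them ATF5 with 14 untreated and 22 DMSO reads and CEBPB with 8 and 3. ATF3, a target and partner of ATF4 with 5602 own bases, had 0 untreated and 5 DMSO reads. ATF3, PHGDH and HSPA5 are named after their values were seen.

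Genes of amino acid supply and other known ATF4 targets mostly stood below the median window. Over the 4 lists of amino acid synthesis, amino acid transport, tRNA charging and other targets, 23 of 52 genes passed the floor, of which 20 had a ratio below that of the median window. The number at least 2-fold lower was 8, against 7.97% of all windows. Over these and the upstream and partner lists together it was 8 of 38. This count depends on how depth is equalised and on the floor. With the DMSO library thinned to the untreated total it was 8 of 33, against 7.61% of all windows there. After thinning to equal reads outside ribosomal RNA and mitochondrial windows it was 2 of 24, a share near the 8.13% of all windows there. At a floor of 20 CPM and 400 reads it was 0 of 9. Of the 23 genes of the 4 lists none was at least 2-fold higher, and their median was -0.69. Of the 16 whose own bases hold a RefSeq start 4 were at least 2-fold lower (CTH, PSAT1, EPRS and BBC3), against 3.16% of such windows. Centred on the median of such windows instead, that share of windows was 4.77%. SARS, whose symbol was not matched in RefSeq, could not be among the 16. The lists were drawn up with earlier results of these data known, so the counts are a description. The erythroid markers, a list outside this response, had 6 genes past the floor, all 6 below the median window, with a median of -0.49. Of these 1, the fetal globin gene HBG1, was at least 2-fold lower, in own bases without a listed RefSeq start. The difference between the lists was not tested.

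In amino acid synthesis 3 of 12 genes passed the floor and 2 were at least 2-fold lower. CTH, which makes cysteine from cystathionine, held 72 reads in each library and stood at -2.23 (interval -2.73 to -1.75). PSAT1, of serine synthesis, held 58 and 73 and stood at -1.90 (interval -2.42 to -1.38), and CBS, the enzyme before CTH, held 120 and 339 and stood at -0.74. PHGDH, the first enzyme of serine synthesis, had 144 own bases and 0 reads.

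In amino acid transport 6 of 11 passed and 1 was at least 2-fold lower. SLC7A11, the cystine carrier, held 129 untreated and 70 DMSO reads and stood at -3.11. SLC7A5, the large neutral amino acid carrier, held 208 and 851 reads and stood at -0.21 (interval -0.43 to 0.02), and SLC1A4 stood at -0.65. All 6 stood below the median window.

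In tRNA charging 6 of 13 passed and 2 were at least 2-fold lower. EPRS, the glutamyl-prolyl-tRNA synthetase gene, held 64 and 104 reads and stood at -1.53, and SARS, the seryl-tRNA synthetase gene, held 117 and 201 and stood at -1.45. XPOT, which exports tRNA from the nucleus, stood at -0.67. NARS, the asparaginyl-tRNA synthetase gene, was the only one of the 6 above the median window, at 0.25 (interval -0.24 to 0.78).

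Among the 16 other targets 8 passed and 3 were at least 2-fold lower. The stress cytokine gene GDF15 held 67 and 105 reads and stood at -1.58 (interval -2.05 to -1.13). BBC3 (PUMA), which promotes apoptosis, stood at -1.48, and EIF4EBP1, a translation repressor, at -1.12. GADD45A, of the growth arrest response, held 287 and 816 reads and stood at -0.73, and the autophagy gene MAP1LC3B was highest at 0.42. The own bases of SLC7A11, GDF15, EIF4EBP1, GADD45A and MAP1LC3B do not hold a listed RefSeq start. The symbol SARS had no unique match in RefSeq, so its starts were not looked up.

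**Figure D5:**
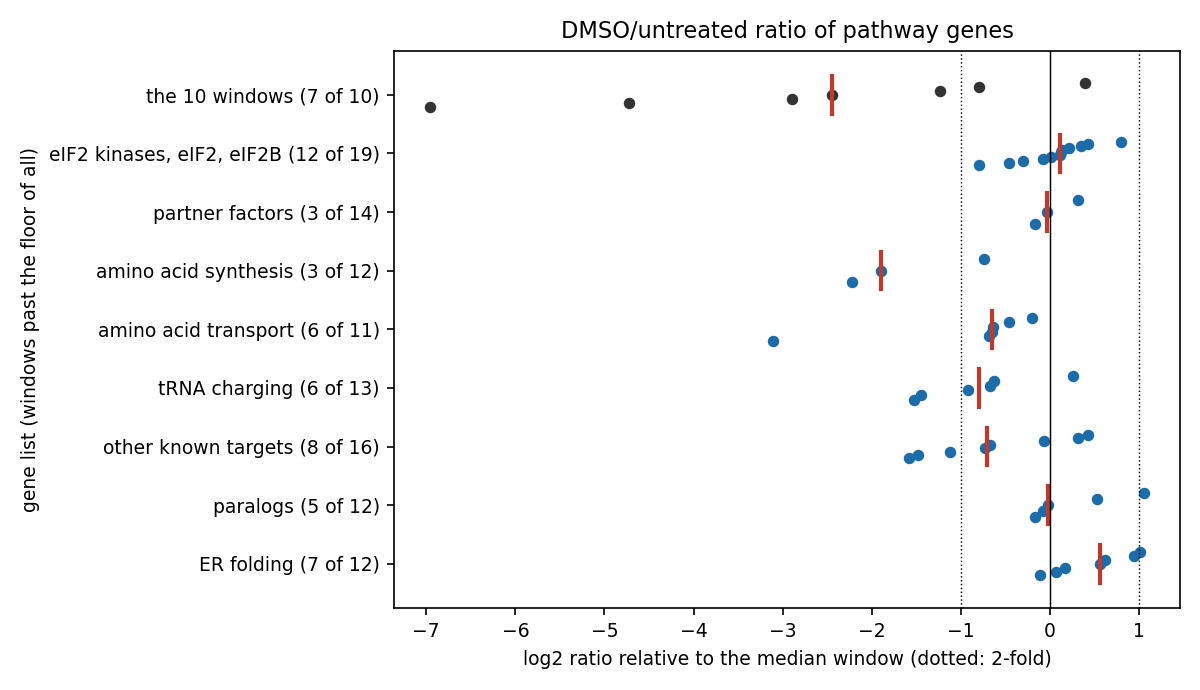
Log2 DMSO/untreated ratio relative to the median window for the genes past the floor in each list (points), with the list's median as a red bar and, in brackets, how many of the list passed the floor. Amino acid synthesis, transport, tRNA charging and other targets have medians from -1.90 to -0.65, the eIF2 list 0.12 and the ER folding list 0.56; each point rests on 1 library per treatment.

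Paralogs of the 10 genes, the other members of their protein families, mostly stood near the median window or could not be measured. Of 12 paralogs 5 passed the floor, none was at least 2-fold lower (7.97% of all windows), and SESN3 was at least 2-fold higher (7.04% of all windows) at 1.05 with 11 untreated and 109 DMSO reads (interval 0.17 to 2.12). CHAC2 held 43 and 200 reads and stood at -0.02 (interval -0.50 to 0.49), against -4.73 for CHAC1. PPP1R15B, the constitutive partner of PPP1R15A in eIF2 dephosphorylation, stood at -0.08, CEBPG at -0.17 and TRIB1 at 0.53. The own bases of TRIB1 do not hold a listed RefSeq start. STC1 had 1 untreated and 0 DMSO reads in 6000 own bases. TRIB2, ASNSD1, SESN1, DDIT4L, ATF5 and CEBPB had under 1 kb of own bases and at most 36 reads in all. Of these, CEBPB stood at -3.35 (interval -6.20 to -1.59), TRIB2 at -2.39 (interval -5.42 to -0.09) and ATF5 at -1.56 (interval -2.62 to -0.51).

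Genes of protein folding in the ER, which follow mainly the ATF6 and XBP1 arms of the unfolded protein response, had mostly higher ratios. Of 12 such genes 7 passed the floor, 1 stood below the median window, and the median was 0.56. PDIA4 held 52 and 493 reads and was at least 2-fold higher at 1.00 (interval 0.59 to 1.45), against 7.04% of all windows past that fold. CALR stood at 0.56, HYOU1 at 0.17, and SDF2L1 was lowest at -0.12 (interval -0.56 to 0.35). The own bases of SDF2L1 do not hold a listed RefSeq start. HSPA5, the main ER chaperone, had 319 own bases with 10 and 16 reads and was under the floor. It stood on the other side of the median window, at -1.52 (interval -2.79 to -0.26). The difference between the lists was not tested.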

How the data were processed

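Per the submitters' processing notes, the authors used Bowtie2 2.3.5, featureCounts 2.0.1 and the build hg38; other steps are not given in the sources used here. The deposited counts are raw reads per 6 kb window. The authors' deposited TPM equalled CPM in all 36814 windows (tolerance 1e-06) and were not used further, nor was their mean. Scaling used TMM from edgeR 4.0.16 (R 4.3.3), with a prior count of 0.5. Own bases are those no other window covers. Of the windows 63.5% had a symbol or a unique synonym in RefSeq (GRCh38.p14), as had all 10 examined, and starts came from its promoter table. The procedure was tested on simulated data. The members and lists were chosen with earlier results of these data known. Named are all 10 windows, windows sharing their bases, paralogs, from each list the 2 of highest mean CPM, the lowest and highest ratio past the floor and all past 2-fold, and the 3 windows nearest to ATF4 and CHAC1; further genes are marked as chosen after their values were seen. Library totals were 2136291 (untreated) and 4154920 reads (DMSO). Alternatives covered scaling, floor, prior count, depth, centring, window sharing and fold.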

Additional observations from a re-analysis of the deposited data

How the results depend on the processing

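No paired analysis was possible because there was a single library for each treatment, and no replicate could be left out. The library totals without centring, the thinning to equal reads outside ribosomal RNA and mitochondrial windows and the restriction to windows whose own bases hold a RefSeq start were chosen after the data were seen. Of the 10 windows, 5 were at least 2-fold lower and none higher; the number lower was 2 at a floor of 20 CPM and 400 reads, where 4 of the windows remain, and the number higher was 1 (ATF4) with library totals and no centring. Their median of -2.45 was -1.13 at that floor, -1.18 with library totals and no centring, -1.84 without DDIT4-AS1 and -1.97 with RefSeq starts only. Of the pathway genes 8 were at least 2-fold lower and none higher, also with the DMSO library thinned to the untreated total (33 genes past the floor). The number lower was 13 at a floor of 1 CPM and 20 reads, 0 at 20 CPM and 400 reads, 18 at 1.5-fold, 2 after the thinning named above (24 genes past the floor in place of 38, with 8.13% of all windows lower), 4 with RefSeq starts only and 1 with library totals and no centring; the number higher was 1 at the low floor, 1 without centring, 1 at 1.5-fold and 17 with library totals and no centring. Fewer genes pass the higher floor and the thinning; the cause of the other differences was not tested. Library totals without centring put the median window at 1.27, and under it SESN2 reversed to 0.046, PPP1R15A stood at 0.48 and DDIT3 at 1.09. Without centring SESN2 was -0.92, which left 4 windows at least 2-fold lower, and DDIT3 was 0.13. PPP1R15A was below 0 in 12 and DDIT3 in 10 of the 13 alternatives. In all 13 alternatives ASNS, CHAC1, DDIT4, DDIT4-AS1, STC2 and TRIB3 stayed below 0 and ATF4 above, CHAC1 between -5.12 and -3.46. Some of the 13 could hardly differ, because centring cancels the scaling factor apart from the prior count. These were centred library totals, DESeq2 size factors, the upper quartile and reads outside ribosomal RNA and mitochondrial windows. Their agreement with the main setting was fixed in advance. Windows with few DMSO reads, such as DDIT4 with 5, are limited by depth.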

Other observations

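Windows with fewer reads in the DMSO than in the untreated library numbered 34 among the 6591 past the floor (0.516%), of which 4 (DDIT4-AS1, CHAC1, STC2 and ASNS) are among the 10 windows and 1, SLC7A11, is in the pathway lists. The 29 others were not tested for a shared function, and those named here were chosen after their values were seen. AL157871.2 with 294 untreated and 90 DMSO reads (-3.93) and AL157871.4 with 304 and 225 (-2.67) both lie in WARS1, the tryptophanyl-tRNA synthetase gene, whose own window had 388 unshared bases and 0 reads. AC126696.2 with 317 and 207 reads (-2.85) counts bases of SLC7A5, whose own window at its start stood at -0.21. CEBPB-AS1, with 71 and 58 reads (-2.51) in 669 own bases, shares its remaining bases with the CEBPB window. Outside the lists of this response were MTRNR2L8 with 22205 and 17162 reads (-2.61), OR51M1 with 58 and 45 (-2.58) and NACA with 117 and 103 (-2.41). ANXA1 with 94 and 88 reads (-2.32) and G0S2 with 113 and 75 (-2.82) were also outside them. Of RefSeq genes, the NACA window counts bases of PRIM1 and none of NACA. The windows OR51M1, MTRNR2L8 and G0S2 also count bases of other genes, OR51B5 in the case of OR51M1.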
